A study of Mus musculus with 6 samples.

Results

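Transcripts of 8 complement genes were followed through the cells of the adult mouse olfactory bulb: C1qa, C1qb and C1qc, the chains of the recognition molecule C1q; C3 and C4b, the components that become bound to targets; C3ar1 and C5ar1, the receptors for the released fragments C3a and C5a; and Serping1, the inhibitor of the C1 proteases. The genes were taken as a list of names, and all 8 were among the 18560 genes of the count table. Expression was measured by single-cell RNA sequencing in 6 libraries, with 2 libraries for each of 3 conditions. Control mice had no manipulation according to the labels, while the study also describes the open side of occluded animals as a control. Occluded mice had a naris plugged unilaterally, and the study took the occluded side as the sample deprived of odors. Trained mice were water deprived and had learned to discriminate odors for a water reward. Any effect of water deprivation cannot be told apart from that of training. Deprivation and training lasted 6 weeks. All were C57BL/6NJ mice of 14 weeks, and each library was a pool of 3 mice. Males made up replicate 1 and females replicate 2 of every condition. Xist gave at most 5 UMIs in each replicate 1 and at least 20000 in each replicate 2, and Ddx3y at least 1116 and 0, respectively. A library is therefore a mix of animals, sex differs between the replicates of each condition, and some cells of the olfactory epithelium are among those sequenced.

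The libraries held between 6705 and 10570 annotated cells and between 11841160 and 17065083 unique molecular identifiers (UMIs, each standing for a captured RNA molecule). Trained replicate 1 stood apart in depth, with a median of 1028 UMIs per cell and 14.4% mitochondrial UMIs in the median cell, while the other medians lay between 1344.5 and 1723.5 UMIs. The 38 clusters named in the deposited annotation were used. The checks of names against marker genes gave 5 of 6 microglial markers highest in MicroG2, and all 6 markers of border macrophages highest in the macrophage cluster (Mf). The cluster named Mono held the highest levels of 6 of 7 monocyte and dendritic cell markers, but also of all 4 neutrophil and all 4 lymphocyte markers, so it is a mixed leukocyte cluster here, called Mono. Of 49931 different barcode sequences, 1461 occurred in more than 1 library.

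Complement is a cascade of proteins that marks targets for removal. In the classical pathway, C1q binds a target and the attached proteases cleave C4 and C2, which together cleave C3, and the fragments C3a and C5a signal through receptors on myeloid cells. In the brain, C1q is known as a product of microglia and has been tied to the removal of synapses during development and disease, and the olfactory bulb is a site where new neurons keep forming synapses in the adult.

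The 3 C1q genes lie side by side on chromosome 4, within 18719 bases of GRCm38, at chr4:136880126-136886200 (C1qb), chr4:136889801-136892936 (C1qc) and chr4:136895916-136898844 (C1qa). C3ar1 is at chr6:122847140-122856157, C5ar1 at chr7:16246743-16259540, Serping1 at chr2:84765360-84775444, C4b at chr17:34728139-34743902 and C3 at chr17:57203967-57228136. C4b has a near-identical neighbour, C4a, at chr17:34809092-34823460, which RefSeq lists as a transcribed pseudogene and which was not analysed here. Reads of the pair can be hard to assign, so the C4b counts are uncertain to that extent.

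RefSeq promoters (GRCm38.p6) were given for 5 of the 8 genes: C1qb, C1qc, C3, C3ar1 and C5ar1. They are shown because each gene had its highest level in an immune cluster, although C3 was barely detected, with 51 of its 72 UMIs in the mixed leukocyte cluster Mono. They span 250 bases before to 50 after the start, on the minus strand, written 5′ to 3′. Capitals mark matches, on either strand, to the ETS core GAGGAA, the MAF core TGCTGA or the C/EBP motif TTGCNNAA, and none of these matches overlapped.
C1qb promoter, chr4:136886151-136886450: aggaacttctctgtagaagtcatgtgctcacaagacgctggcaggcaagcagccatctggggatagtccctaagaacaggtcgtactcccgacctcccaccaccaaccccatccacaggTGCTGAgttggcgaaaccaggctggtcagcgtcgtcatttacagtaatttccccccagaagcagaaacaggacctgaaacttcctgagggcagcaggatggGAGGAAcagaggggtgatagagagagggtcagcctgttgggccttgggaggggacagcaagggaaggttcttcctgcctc
C1qc promoter, chr4:136892865-136893164: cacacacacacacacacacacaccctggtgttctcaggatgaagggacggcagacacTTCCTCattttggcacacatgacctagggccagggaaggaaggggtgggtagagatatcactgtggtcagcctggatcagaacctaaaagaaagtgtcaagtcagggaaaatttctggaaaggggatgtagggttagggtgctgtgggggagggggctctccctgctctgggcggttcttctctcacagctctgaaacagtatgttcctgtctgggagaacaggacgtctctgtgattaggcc
C3 promoter, chr17:57228087-57228386: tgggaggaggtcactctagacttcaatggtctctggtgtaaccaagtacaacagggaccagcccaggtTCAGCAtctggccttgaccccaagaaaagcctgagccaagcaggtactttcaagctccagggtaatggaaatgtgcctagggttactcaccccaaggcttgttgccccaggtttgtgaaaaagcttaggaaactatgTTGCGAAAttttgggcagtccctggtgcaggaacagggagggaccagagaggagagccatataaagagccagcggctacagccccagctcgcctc
C3ar1 promoter, chr6:122856108-122856407: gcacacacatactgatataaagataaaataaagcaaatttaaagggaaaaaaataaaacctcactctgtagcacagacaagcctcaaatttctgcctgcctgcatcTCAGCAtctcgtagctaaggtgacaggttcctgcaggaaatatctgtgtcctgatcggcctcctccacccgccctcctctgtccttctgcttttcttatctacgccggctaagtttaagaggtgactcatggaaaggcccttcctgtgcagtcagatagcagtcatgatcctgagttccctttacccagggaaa
C5ar1 promoter, chr7:16259289-16259588: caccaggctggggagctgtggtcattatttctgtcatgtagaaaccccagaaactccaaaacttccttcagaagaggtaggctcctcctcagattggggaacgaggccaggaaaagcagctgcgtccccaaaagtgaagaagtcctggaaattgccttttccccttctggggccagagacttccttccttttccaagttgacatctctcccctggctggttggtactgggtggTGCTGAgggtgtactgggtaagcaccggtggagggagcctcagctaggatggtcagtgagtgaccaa

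The ETS core was found in the promoters of C1qb (first base at -30 from the start) and C1qc (-193, on the opposite strand), and in 28.28% of 32851 mouse promoters of the same length. The MAF core was found in C1qb (-131), C3 (-182), C3ar1 (-144) and C5ar1 (-17), and in 19.48% of all promoters. The C/EBP motif was found in C3 (-45) and in 10.8% of all promoters. The IRF motif, a pair of GAAA separated by 2 free bases, was in none of the 5 windows and in 3.443% of all promoters. These are matches of letters only, and no binding was measured.

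The C1q genes were highest in the microglial clusters MicroG2 and MicroG1. Levels are UMIs of a gene per 1000000 UMIs of the cluster (CPM), given as the mean over libraries. C1qa, the A chain, stood at 11372 ± 592 CPM in MicroG2 (SD, n = 6 libraries), 10417 ± 457 in MicroG1, 6747 ± 596 in MicroG3, 6570 ± 466 in Mf and 3700 ± 534 in Mono. The next cluster, the neuronal cluster N15, held 299 ± 168 CPM. C1qb, the B chain, followed the same order, with 9175 CPM in MicroG2, 8518 in MicroG1, 6473 in MicroG3, 4734 in Mf and 3174 in Mono. For C1qc, the C chain, Mf (4825 CPM) and MicroG3 (4580 CPM) did not differ beyond the spread between libraries, nor did MicroG3 and Mf for C1qa. MicroG2 was above MicroG1 in 6 of 6 libraries for each of the 3 chains, although the ranges over libraries overlapped. All genes could help to define the clusters, so these orders are given as a description without a test.

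The 3 chains together made up 2.65 ± 0.11% of all UMIs of microglia (SD, n = 6), 1.61 ± 0.083% in Mf, 0.93 ± 0.11% in Mono and 0.0207 ± 0.0038% in neurons. Microglia were 7.78% of the cells and held 81.2% of the C1qa, 81.4% of the C1qb and 80.9% of the C1qc UMIs. Neurons, 43.8% of the cells, held 2.76% of the C1qa UMIs.

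**Figure D1:**
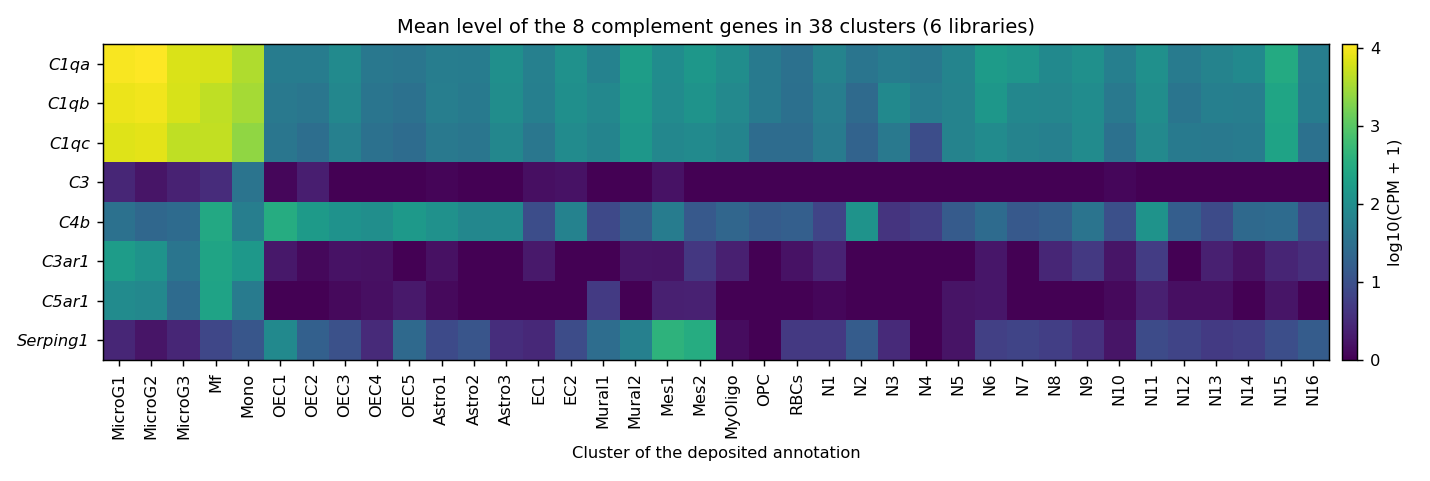
Mean level of each of the 8 complement genes (rows) in each of the 38 clusters (columns), as log10(CPM + 1) over 6 libraries, with brighter colour for higher levels. The C1q chains are brightest in MicroG1 and MicroG2 (7169 to 11372 CPM), C4b in OEC1 (325 CPM) and Serping1 in Mes1 (424 CPM), whereas C3 stays under 36 CPM everywhere.

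C1q was found in nearly every microglial cell. C1qa had a UMI in 2260 of 2260 MicroG2 cells (100%, exact 95% interval 99.8 to 100%, median depth 1847 UMIs) and in 790 of 790 MicroG1 cells (99.5 to 100%, 2336 UMIs). In MicroG3, which had a median of only 748 UMIs per cell, the share was 95.3% (93.7 to 96.5%), and in Mf it was 97.2% (95.5 to 98.4%, 1629.5 UMIs). In Mono it was 58.6% (54.6 to 62.5%, 1844 UMIs). Among neurons, taken here as cells that should lack C1q, the share ran from 3.81% in N3, at a median of 774 UMIs, to 16.2% in N2, at 3568.5 UMIs, over the 16 neuronal clusters. The intervals cover counting error only.

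With every cell thinned to 500 UMIs, the median number of C1q UMIs, summed over the 3 chains, was 14 in MicroG2, 13 in MicroG1, 8 in MicroG3, 7 in Mf and 2 in Mono. Of neurons, 91.4% had none. All 3 chains were seen in 94.1% of MicroG2, 93.0% of MicroG1, 70.7% of MicroG3, 65.2% of Mf and 37.4% of Mono cells, against 0.253% of neurons. MicroG3 thus remained below the other microglial clusters at equal depth. Its median mitochondrial share was 14.4% against 6.49% in MicroG2. Its microglial markers summed to 2291 CPM against 8783 CPM in MicroG2. Markers of ensheathing cells were at 1945 against 887 CPM, those of oligodendrocytes at 1998 against 800 CPM and those of neurons at 806 against 396 CPM, while those of red blood cells ranged from 55.9 to 18498 CPM over libraries in MicroG3 and from 44.2 to 929 CPM in MicroG2. The part of RNA quality and of other cells' RNA in its lower level was not tested.

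Cells of Mono were divided in their C1q content. At the thinned depth, 255 of 623 cells (40.9%) had no C1q UMI, between 37.0 and 46.7% in each library, while 226 had at least 6. Cells without C1q had Plac8, a gene of blood monocytes, at 658 CPM over their pooled UMIs, with a UMI in 21.2% of them, and no UMI of P2ry12 or Ms4a7. Cells with at least 6 C1q UMIs had no UMI of Plac8, while Ms4a7 and Pf4, genes of tissue macrophages, stood at 648 and 1106 CPM and Cd74, the invariant chain of MHC class II, at 19045 CPM against 4961 CPM in cells without C1q. Ccr2, a chemokine receptor of monocytes, did not divide the cells in this way, at 372 CPM without C1q and 354 CPM with at least 6 C1q UMIs. C3ar1 stood at 259 CPM in the C1q-rich cells and 6.92 CPM in those without. The microglial genes P2ry12, Tmem119 and Cx3cr1 were at 143, 209 and 717 CPM in the C1q-rich cells and 0, 3.46 and 57.1 CPM in those without. The median depths of these cells were 2092 and 1800 UMIs. The cells were grouped by C1q itself, so only the other genes describe them. Neutrophil and lymphocyte markers, also high in Mono, were not examined by C1q content, so the cells without C1q are not named here.

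The proportion of C1qb to C1qa was higher in MicroG3 than in MicroG1 and MicroG2. For every 100 C1qa UMIs, C1qb gave 81.8 ± 2.9 in MicroG1 and 80.7 ± 2.3 in MicroG2 (SD, n = 6), 96.1 ± 4.2 in MicroG3 and 72.3 ± 4.6 in Mf. C1qc gave 68.9 ± 2.5 in MicroG1, 68.7 ± 2.6 in MicroG2, 68.0 ± 4.6 in MicroG3 and 73.6 ± 5.7 in Mf, so its ratio in MicroG3 lay within the spread of the other microglial clusters. The MicroG3 ratios of C1qb, from 91.0 to 101, lay above all those of MicroG1 and MicroG2, which ran from 77.1 to 86.0. The Mf ratios, from 68.4 to 81.0, overlapped with theirs.

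Low C1q counts outside immune clusters came with counts of other microglial genes. In pooled neurons, 100 C1qa UMIs came with 84.2 of C1qb, 68.8 of C1qc, 55.4 of Ctss, a lysosomal protease that is high in microglia, and 12.2 of P2ry12, a microglial receptor. MicroG2 gave 80.8, 68.8, 49.4 and 18.3. Mrc1, a receptor of border macrophages, gave 1.70 in neurons, 0.0620 in MicroG2 and 21.7 in Mf, while Ctss gave 15.3 and P2ry12 1.32 in Mf. Ensheathing cells gave 57.3 and astrocytes 62.5 UMIs of Ctss. The 3 chains together were at 207 ± 38 CPM in neurons (SD, n = 6). They were at 110 to 186 CPM by library in the neurons without a UMI of Cx3cr1, Ctss or P2ry12, and the source of these counts was not tested.

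**Figure D2:**
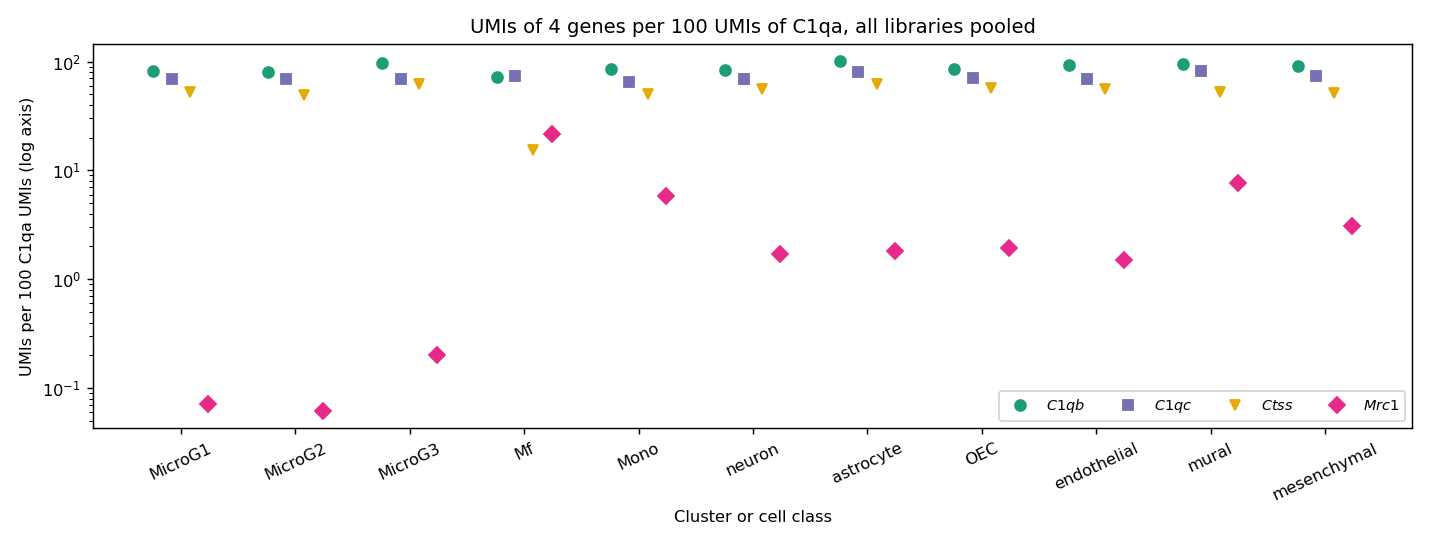
UMIs of C1qb, C1qc, Ctss and Mrc1 per 100 UMIs of C1qa (log axis) in immune clusters and in classes of other cells, pooled over cells. The ratios of C1qb, C1qc and Ctss in neurons lie near those of microglia, while Ctss is lower in Mf (15.3) than in MicroG2 (49.4), and Mrc1 is higher in Mf (21.7) than in MicroG2 (0.0620).

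C3, the central component of all pathways, was barely detected. The whole table held 72 C3 UMIs, and 51 of them were in 26 of 623 Mono cells, with at most 6 in a cell. Over libraries, Mono held 13 and 12 C3 UMIs in control, 4 and 1 in occluded and 7 and 14 in trained replicates 1 and 2. The level was 35.7 ± 21.2 CPM in Mono (SD, n = 6) and at most 2.27 CPM in any other cluster. The occluded libraries were lowest, but C3 had too few counts to be tested in any class. The share of cells with a C3 UMI was 4.17% in Mono, and 1 C3 UMI was found in 22501 neurons. Microglia held 8 C3 UMIs in 4001 cells, so C3 was at or near the limit of detection there at this depth.

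C4b, a component cleaved by the C1 proteases, followed a pattern of its own. It was highest in OEC1, a cluster of olfactory ensheathing cells, the glia that wrap olfactory axons, at 325 ± 79 CPM (SD, n = 6), and next in Mf at 279 ± 71. These did not differ beyond the spread, since OEC1 was higher in 3 of 6 libraries. OEC2 held 160 CPM and OEC5 147, followed by the neuronal clusters N11 (122 ± 38 CPM) and N2 (122 ± 79 CPM, 68 cells), and OEC3 held 114, Astro1 111 and OEC4 100.2 CPM. Ensheathing cells held 61.7% of all C4b UMIs while making up 22.5% of the cells, and astrocytes held 13.3%. C4b UMIs were found in 46.4% of OEC1 cells (median depth 2108 UMIs) and 28.7% of Mf cells (1629.5 UMIs), beside 1.43% of cells of the endothelial cluster EC1 (1621 UMIs). With cells thinned to 500 UMIs, the shares were 15.5, 11.2 and 0.396%.

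The summed level of 5 ensheathing markers was 24036 CPM in OEC1 and 2418 CPM in Mf and its range over libraries in Mf was 1643 to 3688 CPM. Of the neuronal clusters high in C4b, N2 held the ensheathing markers at 19351 CPM, the highest sum of any neuronal cluster, and N11 at 2729 CPM. The neuronal clusters N6, N15 and N7 held more of these markers than N11, at 4170, 3085 and 3062 CPM, but C4b at 25.4, 25.2 and 12.5 CPM. The endothelial markers were at 3635 CPM in N11. The part of RNA of other cells in the C4b of N2 and N11 was not tested.

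The receptors C3ar1 and C5ar1 were myeloid, and both were highest in Mf. C3ar1, the receptor of C3a, stood at 230 ± 27 CPM in Mf (SD, n = 6), 175 ± 16 in MicroG1, 143 ± 60 in Mono, 120 ± 15 in MicroG2 and 36.3 ± 26.6 in MicroG3. Mf was above MicroG1 in 6 of 6 libraries with no overlap, and MicroG2 was above MicroG3 likewise, whereas MicroG1 and Mono, and Mono and MicroG2, did not differ beyond the spread. In every other cluster C3ar1 was at 4.34 CPM or less. MicroG1 exceeded MicroG2 in C3ar1, the reverse of their order in C1q.

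C5ar1, the receptor of C5a, stood at 222 ± 63 CPM in Mf (SD, n = 6), 88.3 ± 19.7 in MicroG1, 77.2 ± 15.7 in MicroG2, 48.3 ± 16.5 in Mono and 24.9 ± 10.9 in MicroG3. Mf again stood above MicroG1 in all 6 libraries without overlap, and MicroG1 and MicroG2 did not differ beyond the spread. All other clusters were at 3.92 CPM or less. A UMI of C5ar1 was found in 26.2% of Mf, 16.5% of MicroG1 and 12.3% of MicroG2 cells, and neurons held 14 C5ar1 and 47 C3ar1 UMIs in 22501 cells.

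Serping1, which encodes the C1 inhibitor, was expressed outside the immune clusters. It was highest in the mesenchymal clusters Mes1 (424 ± 51 CPM, SD, n = 6) and Mes2 (318 ± 65 CPM), followed by OEC1 (82.0 ± 14.6 CPM) and Mural2 (57.1 ± 13.9 CPM). Mes1 was above Mes2 in 6 of 6 libraries, though the ranges overlapped, and Mes2 was far above OEC1 without overlap. Mesenchymal cells, 1.72% of all cells, held 47.6% of the Serping1 UMIs and ensheathing cells 34.1%, while the 4001 microglia held 8 UMIs.

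Genes whose levels over the 38 clusters were most like those of each member were found by Pearson's r of log2(CPM + 1) among 14253 genes. These correlations share the same libraries and clusters and are given without a test. C1qa was most like C1qb (r = 0.994) and Tyrobp (0.988), an adaptor of myeloid receptors, and C1qc was nearest to C1qa and Csf1r (0.988), the receptor that microglia need to survive. C3ar1 was most like Themis2 (0.960), C5ar1 like Clec4a3 (0.964), C3 like Dnase1l3 (0.944) and Serping1 like Pcolce (0.873), which enhances collagen processing. C4b was most like Apoe (0.908), the lipid carrier of glia and macrophages. Between members, r was 0.932 for C3ar1 and C5ar1, 0.133 for C4b and C1qa and -0.12 for Serping1 and C1qa.

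Of 42 further complement genes listed by role, 30 were in the table and 15 reached 50 CPM in a cluster, and those outside the table were not analysed here. Among 8 genes that start the classical and lectin pathways, C2 reached 75.7 ± 16.6 CPM in Mes1 and Fcna, a ficolin, 72.4 ± 31.7 in Mf (SD, n = 6), while the other 6, the genes of the C1 proteases among them, stayed below 50 CPM. Cfp, the properdin that stabilizes the alternative convertase, reached 150 ± 65 CPM in Mf. None of 3 terminal components in the table reached 50 CPM.

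Of 7 further receptor genes, 5 reached 50 CPM. Itgam and Itgb2, which form complement receptor 3, were highest in MicroG1 at 267 ± 46 and 155 ± 28 CPM (SD, n = 6). MicroG2 lay within the spread for both, at 258 ± 24 and 150 ± 16 CPM. C5ar2, the other C5a receptor, was highest in MicroG2 at 88.9 ± 7.7 CPM, within the spread of MicroG1 (77.0 ± 16.8) and Mf (69.9 ± 21.4). Among 10 regulators, 7 reached 50 CPM. Cd59a, which blocks the terminal complex, was highest in OEC1 (402 ± 50 CPM), Clu in Astro1 (2715 ± 208 CPM) and Vtn in Mural2 (10772 ± 2060 CPM). OEC5 held Cd59a at 402 ± 21 CPM and Astro2 held Clu at 2604.5 ± 121 CPM, both within the spread. By mean, 6 of the 7 regulators were highest in ensheathing, astrocytic or mural clusters, and Susd4 in the neuronal cluster N8. Cr1l in Mural1 (119 ± 58 CPM) was within the spread of the endothelial cluster EC1 (109 ± 13 CPM). Cd55 in OEC1 (102 ± 22 CPM) was within the spread of Mes2 (92.7 ± 39.5 CPM), and Susd4 in N8 (116 ± 9.6 CPM) of N15 (110 ± 33 CPM).

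Whether odor deprivation or training altered these genes was tested on counts summed per library within 8 classes of cells, for the 3 pairs of conditions, which gives 24 comparisons. The tests used edgeR's quasi-likelihood method with Benjamini-Hochberg adjustment over all genes tested in a comparison, and a gene was called at an adjusted p under 0.05. The pairs of conditions share libraries and are not independent of each other. The p-values measure the spread between these pooled libraries. The main fit does not pair the replicates by sex, so this spread includes any difference between the male and the female pool of a condition. The 3 C1q chains were tested in every class, C3 in none, and low counts kept C4b, C3ar1, C5ar1 or Serping1 out of some, so that 4 to 6 of the 8 were tested in each class. Only 1 of all member tests was called, C1qa in endothelial cells between trained and occluded libraries. In that comparison 0.767% of 9643 genes were called, the highest share of the 24 comparisons. The C1qa values are given after those of the cells that express C1q.

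In microglia, C1qa was 10370 and 10779 CPM in control replicates 1 and 2, 11059 and 11028 in the occluded and 9557 and 10655 in the trained libraries. Both occluded libraries were above both control and both trained libraries, and the trained replicate 1, the shallowest library, was lowest. The log2 fold change was 0.07 for occluded against control (95% interval -0.11 to 0.26, adjusted p = 0.997), -0.09 for trained against control (-0.28 to 0.10, adjusted p = 0.981) and -0.16 for trained against occluded (-0.35 to 0.02, adjusted p = 0.758). For C1qb the values were 0.07, -0.09 and -0.16, and for C1qc 0.08, 0.01 and -0.07. No interval of the 3 chains reached beyond 0.35 in either direction. MicroG3, lower in C1qa, made up 21.9 and 22.8% of microglia in control, 21.6 and 21.3% in occluded and 29.1 and 23.9% in trained libraries. By cluster, both occluded libraries were highest in C1qa in MicroG1, at 10999 and 10954 CPM, but overlapped with control in MicroG2 and MicroG3. Trained replicate 1 was lowest in each of these clusters.

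The microglial receptors did not pass the test in any pair of conditions. C3ar1 was 124 and 142 CPM in control, 141 and 116 in occluded and 104 and 129 in trained replicates 1 and 2, and all groups overlapped. C5ar1 was 84.1 and 76.3 CPM in control, 86.6 and 69.3 in occluded and 63.6 and 64.6 in trained libraries. Both trained libraries were below all others, with a log2 fold change against control of -0.35 (95% interval -0.70 to 0.00067, adjusted p = 0.961). No single microglial cluster had this order. In MicroG1 all groups overlapped, at 120 and 62.5 CPM in control, 90.8 and 76.7 in occluded and 81.8 and 98.4 in trained libraries. In MicroG2 and MicroG3 both trained libraries were below both controls but overlapped with the occluded ones. Of the 6 members tested in microglia, none was called by edgeR or DESeq2 in any pair of conditions, and 1, 0 and 1 had an unadjusted p under 0.05 for occluded against control, trained against control and trained against occluded, beside 4.34, 4.71 and 6.92% of all genes. Of all genes tested in microglia, 0%, 0% and 0.0216% were called in these comparisons, and between 33.4 and 35.2% had libraries that did not overlap between the conditions.

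**Figure D3:**
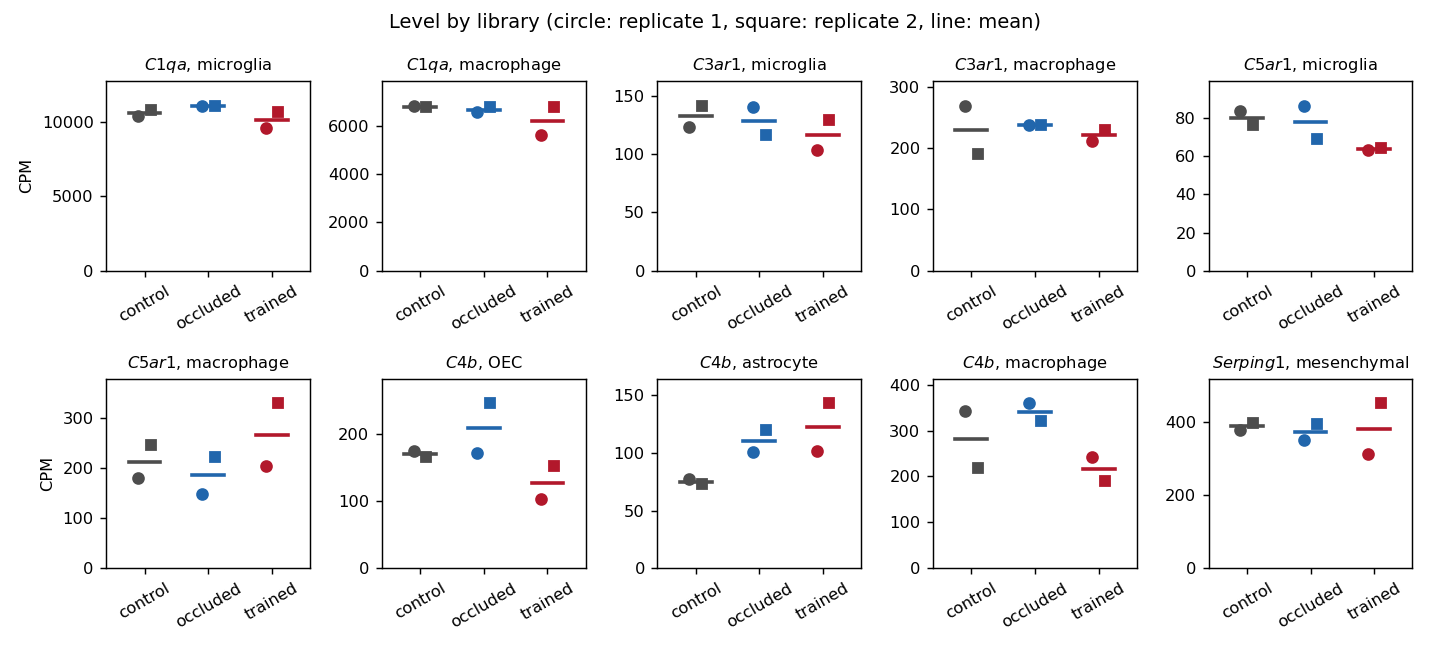
Level (CPM) of member genes in the classes that express them, by library, with circles for replicate 1, squares for replicate 2 and a line at the mean of each condition. Microglial C1qa lies between 9557 and 11059 CPM in all 6 libraries, and astrocytic C4b lies below 78 CPM in both control libraries and above 100 CPM in the others.

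In Mf, C1qa was 6842 and 6778 CPM in control, 6564 and 6798 in occluded and 5639 and 6796 in trained replicates 1 and 2, so trained replicate 1 lay below the other 5 libraries, which ran from 6564 to 6842 CPM. The log2 fold changes of the 3 chains ran from -0.14 to 0.20, and their intervals reached at most 0.45. C3ar1 was 269 and 190 CPM in control, 238 and 239 in occluded and 211 and 230 in trained libraries. C5ar1 was 180 and 246 CPM in control, 148 and 223 in occluded and 205 and 329 in trained libraries, and replicate 2 was the higher one in each condition. In the test of trained against occluded, its log2 fold change was 0.52 (SE 0.29, adjusted p = 0.738).

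C4b of Mf was 343 and 218 CPM in control, 359 and 322 in occluded and 243 and 191 in trained replicates 1 and 2. Both trained libraries were below both occluded ones, with a log2 fold change of -0.66 (SE 0.27, adjusted p = 0.532), but overlapped with control. None of the 6 members tested in Mf was called by edgeR or DESeq2, and 0, 0 and 1 had an unadjusted p under 0.05 in the 3 comparisons, beside 4.6, 5.11 and 7.56% of all genes. In these, 0.073%, 0% and 0.219% of all genes were called. Cfp, the properdin gene, had the lowest unadjusted p among the further complement genes of Mf. Its mean after scaling was 92.2 CPM in trained against 221 CPM in control libraries (log2 fold change -1.23, SE 0.39, adjusted p = 0.377). In trained against control, 4 of the 10 further genes tested in Mf had an unadjusted p under 0.05, beside 5.11% of all genes. The median log2 fold change of the 10 was 0.21.

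In Mono, C3ar1 was 104 and 167 CPM in control, 232 and 169 in occluded and 60.7 and 124 in trained replicates 1 and 2. Both trained libraries were below both occluded ones, with a log2 fold change of -1.07 (SE 0.35, adjusted p = 0.990). C5ar1 was 50.4 and 52.3 CPM in control, 75.8 and 49.1 in occluded and 30.3 and 32.1 in trained libraries, with both trained libraries below all others, and a log2 fold change of -0.98 against occluded (SE 0.47, adjusted p = 0.990). None of the 6 members tested was called by edgeR or DESeq2, with 0, 0 and 2 at an unadjusted p under 0.05 beside 3.5, 4.14 and 4.69% of all genes, and 0% of all genes were called in each of the 3 comparisons. The cluster is a mix of leukocytes whose neutrophil markers ranged from 2329 to 22202 CPM over libraries, and the part of cell makeup in these values was not tested.

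Astrocytic C4b was lower in control than in manipulated libraries, without passing the test. It was 77.5 and 72.8 CPM in control, 101 and 120 in occluded and 102 and 143 in trained replicates 1 and 2. Both control libraries were below all 4 manipulated libraries. The log2 fold change was 0.52 for occluded against control (SE 0.17, adjusted p = 0.788) and 0.68 for trained against control (SE 0.17, adjusted p = 0.123). In Astro1 alone, the cluster that held most astrocytic C4b, the levels were 77.0 and 77.0 CPM in control, 120 and 122 in occluded and 111 and 160 in trained libraries. The other clusters did not share this order. In Astro3 (1780 cells) the levels were 73.5 and 36.5 CPM in control, 39.7 and 154 in occluded and 76.0 and 111 in trained libraries, so that both trained libraries were above both controls and the occluded ones overlapped with them. In Astro2 (336 cells) the levels were 88.8 and 111, 31.6 and 73.2, and 111 and 27.5 CPM, in the same order, so that both occluded libraries were below both controls.

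Of the 4 members tested in astrocytes, none was called by edgeR or DESeq2, and 1, 1 and 0 had an unadjusted p under 0.05, C4b in both cases, beside 5.03, 6.29 and 9.12% of all genes. Of all genes, 0.00957%, 0.115% and 0.278% were called in occluded against control, trained against control and trained against occluded. Without trained replicate 1, C4b was called in trained against control, at a log2 fold change of 0.92 (adjusted p = 0.00028, and between 0.00028 and 1.00 over all alternatives). Only the female pool is then left in the trained group, and its spread is assumed to be that of the other groups. It was also called with the replicate block, which pairs the male and the female pools, at 0.67 (adjusted p = 0.0386). Between 33.7 and 36.3% of genes did not overlap between conditions in astrocytes.

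Ensheathing C4b was 175 and 166 CPM in control, 171 and 246 in occluded and 103 and 153 in trained replicates 1 and 2. Both trained libraries were below all others, with a log2 fold change of -0.41 against control (SE 0.27, adjusted p = 0.858) and -0.69 against occluded (SE 0.27, adjusted p = 0.528). OEC1, the cluster highest in C4b, made up 12.02 and 17.83% of ensheathing cells in trained libraries, 22.2 and 19.0% in control and 21.8 and 22.9% in occluded libraries, and the part of this makeup in the class values was not tested. Within OEC1, C4b was 330 and 303 CPM in control, 338 and 461 in occluded and 217 and 301 in trained libraries. Both trained libraries were below all others in OEC1 and OEC3, while they overlapped with control in OEC2, OEC4 and OEC5. For the class as a whole, C4b had opposite signs in astrocytes and ensheathing cells for trained against control, and the difference between the classes was not tested. None of the 5 members tested in ensheathing cells was called by edgeR or DESeq2, with 0 at an unadjusted p under 0.05 beside 4.26, 6.77 and 9.8% of all genes, and 0%, 0.207% and 0.348% of all genes were called in the 3 comparisons. With the replicate block, C4b was called in trained against occluded at -0.69 (adjusted p = 0.0452, and between 0.00011 and 1.00 over all alternatives).

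Serping1 in mesenchymal cells was 380 and 398 CPM in control, 351 and 396 in occluded and 314 and 452 in trained replicates 1 and 2. The trained libraries enclosed all the others. The log2 fold changes were -0.08 (95% interval -0.50 to 0.34) for occluded against control, 0.01 (-0.41 to 0.44) for trained against control and 0.10 (-0.32 to 0.52) for trained against occluded, all with adjusted p above 0.99.

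**Figure D4:**
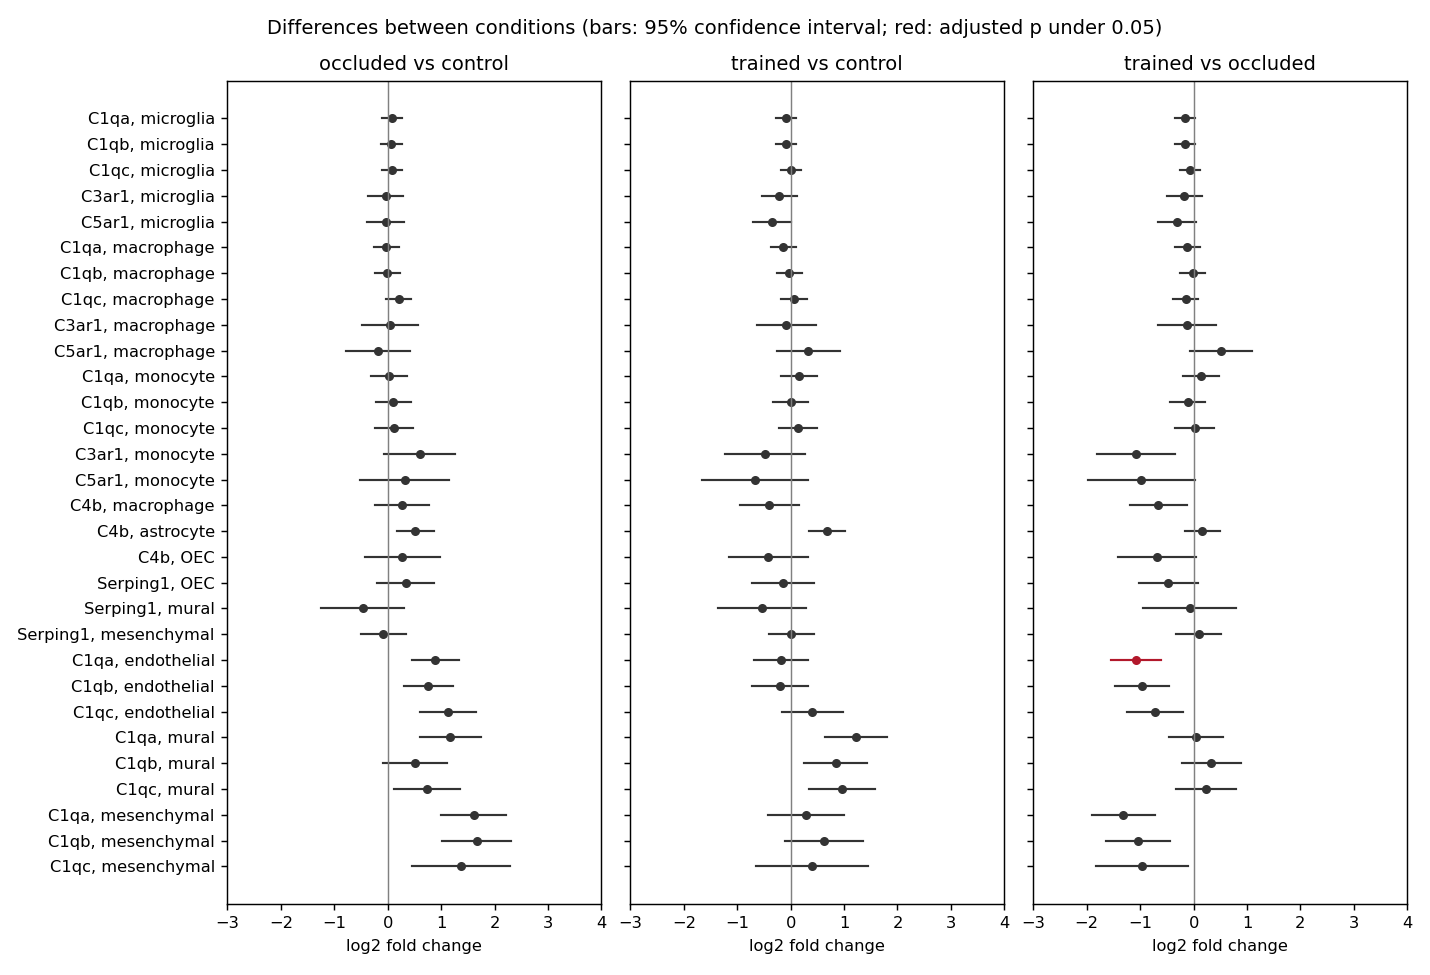
Log2 fold change with 95% interval of tested members by class, for occluded against control, trained against control and trained against occluded. Not drawn are C4b in microglia, Mono, endothelial and mesenchymal cells, and the C1q chains in astrocytes and ensheathing cells. Red marks the value called at an adjusted p under 0.05, C1qa in endothelial cells between trained and occluded (-1.08), and the microglial and Mf intervals of the C1q chains are the narrowest around 0.

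Over the 24 comparisons, the largest C1q differences were in endothelial, mural and mesenchymal cells, which hold little C1q. Endothelial C1qa was 47.4 and 65.5 CPM in control, 129 and 84.7 in occluded and 51.2 and 44.2 in trained replicates 1 and 2. Both occluded libraries were above all others. Trained against occluded gave a log2 fold change of -1.08 (SE 0.23, adjusted p = 0.0195), past the threshold, as were 0.767% of 9643 genes. Occluded against control gave 0.89 (SE 0.22, adjusted p = 0.290), with 0.0104% of genes called. C1qb was at -0.97 (adjusted p = 0.0577) and C1qc at -0.72 (adjusted p = 0.242) in trained against occluded, and C4b at -1.27 (adjusted p = 0.143). Of the 4 members tested, 3, 0 and 4 had an unadjusted p under 0.05 by edgeR in occluded against control, trained against control and trained against occluded. Of all genes, 5.08, 8.65 and 10.8% had such a p. The C1qa call was lost with DESeq2 (adjusted p = 0.247) and without occluded replicate 1, where the log2 fold change was -0.78 (adjusted p = 0.310), and over all alternatives its adjusted p lay between 0.00012 and 0.584.

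In 1 library, few cells carried much of that signal. In endothelial cells, the 3 chains together were at 124 and 164 CPM in control, 334 and 216 in occluded and 131 and 145 in trained libraries, within or near the 166 to 265 CPM of neurons except in occluded replicate 1. In that library, 12 of 416 endothelial cells had at least 5 C1q UMIs, and they held 176 of the 262 C1q UMIs (67.2%), against 24.2% in occluded replicate 2 and 5.48 to 16.1% in the other 4 libraries. The summed microglial genes Cx3cr1, Ctss and P2ry12 moved with C1q, at 27.9 and 55.0 CPM in control, 88.1 and 63.0 in occluded and 43.9 and 37.5 in trained libraries.

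In endothelial cells without a UMI of these 3 genes, a choice made after seeing the data, C1q was at 115 and 127 CPM in control, 129 and 169 in occluded and 106 and 123 in trained replicates 1 and 2. C1qa of trained against occluded was then at -0.42 (adjusted p = 0.584). Leaving out these cells also lowered C1q in every library, so a smaller difference can follow from the choice itself. The source of the endothelial C1q counts was not tested.

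Mesenchymal C1qa was 66.6 and 55.3 CPM in control, 185 and 198 in occluded and 92.2 and 45.6 in trained replicates 1 and 2. Both occluded libraries were again above all others, with a log2 fold change against control of 1.61 for C1qa (SE 0.30) and 1.66 for C1qb (SE 0.31), both at an adjusted p of 0.0504 by edgeR. None of the 5 members tested was called by edgeR or DESeq2 in occluded against control, with 3 at an unadjusted p under 0.05, as were 2.97% of all genes, and 0% of 5833 genes were called there and in the other 2 pairs of conditions. In trained against control and trained against occluded, 0 and 3 members had an unadjusted p under 0.05 by edgeR, beside 4.75 and 4.99% of all genes. In all, 21 of 883 mesenchymal cells had at least 5 C1q UMIs and held 68.9% of the C1q UMIs of the class.

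In mesenchymal cells without a UMI of the 3 microglial genes, C1q was at 111 and 86.8 CPM in control, 115 and 155 in occluded and 94.5 and 65.5 in trained replicates 1 and 2. Both occluded libraries were still the highest, but the log2 fold change of C1qa against control was 0.37 (adjusted p = 1.00, and between 3.6e-05 and 1.00 over all alternatives). The microglial genes themselves had been at 36.1 and 47.9 CPM in control, 211 and 90.1 in occluded and 99.3 and 45.6 in trained libraries over all mesenchymal cells. Leaving out the cells with these genes lowered C1q in every library here too, and the source of the mesenchymal C1q counts was not tested.

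Mural C1qa was 69.9 and 77.8 CPM in control, 116 and 217 in occluded and 195 and 154 in trained replicates 1 and 2, so both control libraries were lowest. The log2 fold change was 1.17 for occluded against control (SE 0.29, adjusted p = 0.176) and 1.22 for trained against control (SE 0.29, adjusted p = 0.111). None of the 4 members tested was called by edgeR or DESeq2, with 2, 3 and 0 at an unadjusted p under 0.05, as were 4.66, 5.98 and 5.96% of all genes, and 0.0351%, 0% and 0.105% of all genes were called in the 3 comparisons. Here 17 of 927 cells had at least 5 C1q UMIs and held 72.0% of those of the class. In cells without the microglial genes, C1q was at 103 and 173 CPM (control), 136 and 96.2 (occluded) and 112 and 59.1 (trained). Over all mural cells, the microglial genes were at 41.3 and 84.3 CPM (control), 42.7 and 219 (occluded) and 141 and 140 (trained). The border macrophage markers ranged from 0 to 161 CPM over libraries in Mural2 and from 3.63 to 131 CPM in Mes1. The source of these counts was not tested.

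**Figure D5:**
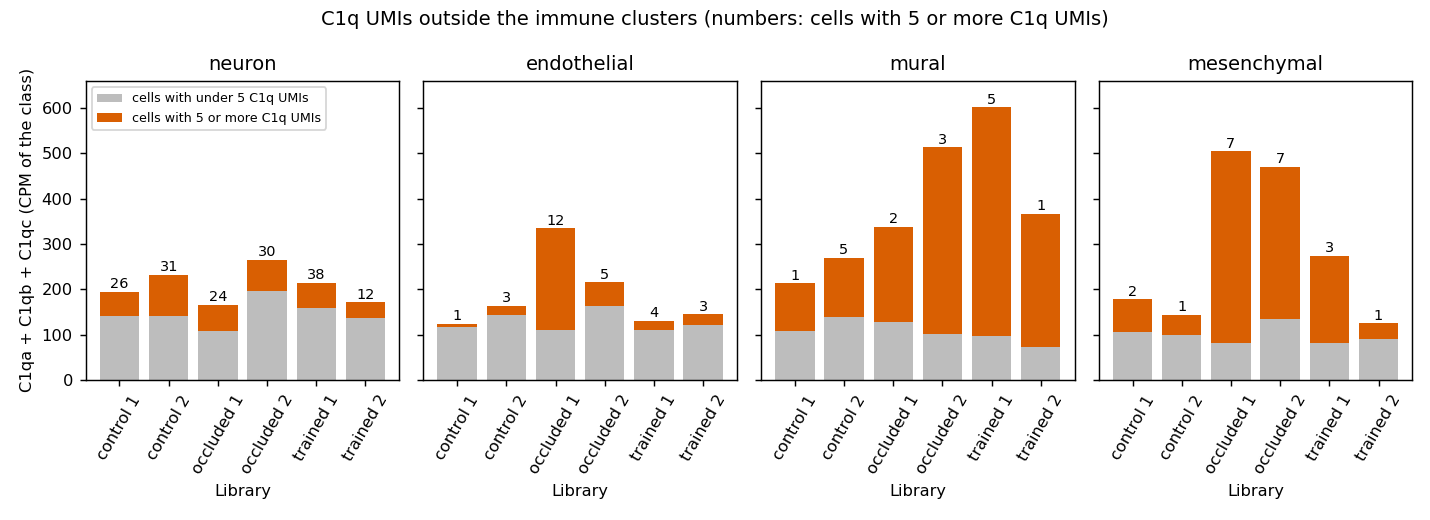
C1q level (CPM of the 3 chains together) by library in neurons, endothelial, mural and mesenchymal cells, as bars starting at 0 and divided into cells with at least 5 C1q UMIs and other cells. The numbers on the bars count the cells with at least 5 C1q UMIs, such as 12 in endothelial cells of occluded replicate 1, where they hold 67.2% of the C1q UMIs.

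Of the further complement genes, 7 to 13 were tested in each class. None rose or fell past the threshold by edgeR in any of the 24 comparisons. Between 0 and 4 per comparison had an unadjusted p under 0.05, beside 2.97 to 10.8% of all genes. The highest count, 4 of 10 genes, was in Mf for trained against control, where 5.11% of all genes had such a p. The median log2 fold change of the further complement genes lay between -0.36 and 0.31, beside medians of all genes between -0.01 and 0.01.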

How the data were processed

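Cells were captured with 10x Chromium 3′ v2 chemistry and sequenced on a NextSeq500. Per the labels and methods, the authors made UMI counts with Cell Ranger 2.0.0 and clustered them with Seurat 2.2.1, kept cells with at least 200 genes and removed doublets, and the submitters' processing notes name mm10. They deposited raw counts without normalization and an annotation with each cell's cluster, library and fraction of mitochondrial UMIs. No doublet caller was run here. Of 52549 barcodes, 1123 without a cluster were left out. Cell names of both trained libraries disagree with the library column, which was used. Under that column, Ddx3y was found in replicate 1 and not in replicate 2 of every condition. Numbering of most neuronal clusters, by their cell numbers, and of some glial and mesenchymal clusters differs from the published lists. Names here are those of the annotation, with Mf for its macrophage cluster.

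CPM values use all UMIs of a cluster or class in a library. Counts summed per library were tested with edgeR 4.0.16 (R 4.3.3; quasi-likelihood, TMM factors, its low-count filter, all 6 libraries in a fit), and scaled means given with tests are over the tested genes. DESeq2 1.42.0, RLE factors, no filter, a replicate block, cells with at least 1000 UMIs, totals without mitochondrial genes and leaving out each library were alternatives. For microglia, MicroG1 and MicroG2 without MicroG3 were a further alternative. Thinned values used 500 UMIs per cell in 1 random draw, and intervals are exact binomial at 95%. The 8 members and all gene lists were chosen with earlier results of these data known. Named genes are the members, pathway genes with a cluster of at least 50 CPM and those most like each member. Some listed genes are not reported here.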

Additional observations from a re-analysis of the deposited data

Results flagged for a closer look

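For C1qb and C4b, both libraries of a condition lay above both of another in some classes and below them in others, in 5 of 21 pairs of a member and a comparison. Values are log2 fold changes from edgeR's quasi-likelihood test, none was called, and the differences between classes were not tested. Between 30.5 and 39.3% of all genes had libraries that did not overlap in a class. How many of all genes did so in opposite directions in different classes was not counted.

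C4b of occluded against control was at -0.73 in microglia, -0.96 in Mono and -0.51 in mesenchymal cells, but at 0.52 in astrocytes and 0.68 in endothelial cells. Trained against control gave 0.68 in astrocytes, and -0.41 in ensheathing, -0.59 in endothelial and -0.72 in mesenchymal cells. Trained against occluded gave 0.69 in microglia, and -0.66 in Mf, -0.69 in ensheathing and -1.27 in endothelial cells. Counts of C4b were low in several of these classes. Its mean was 24.8 CPM in microglia and 19.6 CPM in endothelial cells, beside 21.9 CPM in neurons. Mono held 75 and mesenchymal cells 76 C4b UMIs over all libraries.

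C1qb of occluded against control was at -0.26 in astrocytes, 0.76 in endothelial and 1.66 in mesenchymal cells. Trained against occluded gave 0.34 in astrocytes, and -0.16 in microglia, -0.97 in endothelial and -1.05 in mesenchymal cells.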

How the results depend on the processing

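Each of the 8 members kept its highest cluster under all 10 alternatives tried for levels. Totals without mitochondrial genes moved 5 levels beyond 1 SD: C1qa 12183, C1qb 9830 and C1qc 8361 CPM in MicroG2, C3ar1 257 CPM in Mf and Serping1 483 CPM in Mes1. Of 276 counts of called members under alternatives, 244 equalled the main count. Without the low-count filter, 1 member was called in astrocytes (trained against control), 1 in ensheathing cells (trained against occluded), 2 in endothelial cells for occluded against control and 2 for trained against occluded, 1 in mural cells (trained against control), and 3 and 1 in mesenchymal cells for occluded against control and trained against occluded. Calls over all genes, summed over the 24 comparisons, also rose without the filter, from 252 to 1028. The shares of all genes called in each of these fits are not given here. DESeq2 called 0 in endothelial cells between trained and occluded, as did the cells without microglial UMIs, an alternative chosen after seeing the data. Leaving out 1 library changed the number of called members in some comparisons of Mono, astrocytes, endothelial, mural and mesenchymal cells. It also changed the number of calls over all genes. These counts are not given, since such fits leave 1 library in a condition, which is assumed to vary like those of the other conditions. The replicate block changed 2 of 24 counts, calling 1 member, C4b, in astrocytes (trained against control) and 1 in ensheathing cells (trained against occluded). Replicate numbers mark male and female pools, and same-numbered libraries deviated together with correlations between -0.01 and 0.32. Signs turned in cells without microglial UMIs for C1qa in mural cells (trained against control, -0.40) and for C1qb in mesenchymal cells (trained against control, -0.44). They also turned with a library left out: C1qa in microglia (trained against control, -0.19 to 0.0042), in Mf (trained against control, -0.32 to 0.0064, and against occluded, -0.30 to 0.028), C3ar1 in microglia (trained against occluded, -0.36 to 0.0014), C5ar1 in Mf (trained against control, -0.083 to 0.66), C4b in astrocytes (trained against occluded, -0.079 to 0.41) and ensheathing cells (occluded against control, -0.013 to 0.52), and C1qb in mesenchymal cells (trained against control, -0.015 to 0.94). A further 38 sign changes were of values within 1 SE of 0. Sign changes were counted for 69 selected log2 fold changes, not for all member tests. The cause of these changes was not tested. Over the 24 comparisons there were 252 calls among all genes, where a gene counts again in each comparison that called it. There were 57 calls with DESeq2, 1028 without the filter and 422 with the block, so a call near the threshold depends on these choices. There were 2 pooled libraries per condition, with 72 C3 UMIs and 860 C5ar1 UMIs in all. C3 was not tested, and the smallest change detectable in C5ar1 was not measured, so small changes may have been missed.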
